A study of Mus musculus with 7 samples.

Results

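The cells described here are the mural cells of the mouse brain vasculature, pericytes and vascular smooth muscle cells, as picked out by their RNA from 7 droplet single-cell libraries. A cell was a member when it had at least 5 unique molecular identifiers (UMIs, each 1 counted RNA molecule) of Rgs5, Kcnj8, Abcc9, Vtn and Pdgfrb together. It also had at most 1 UMI of the endothelial genes Cldn5 and Pecam1, at most 2 of the microglial genes Cx3cr1, P2ry12 and Tmem119, and at most 1 of Pdgfra. This left 222 of the 21002 cells that passed the quality limits. Members with at least 3 UMIs of Acta2 and Tagln were noted as smooth muscle (68 cells), and the other 154 are called other mural cells. The 5 gate genes, Acta2 and Tagln chose the cells, so their levels are given as a description.

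The adult libraries were P60 cortex (49 members), P60 grey matter (11) and P60 white matter (68). The early postnatal libraries were P2 cortex (13), P7 cortex (30), P7 SVZ (29), the ventricular-subventricular zone, and P15 cortex (22). All cells were primary and untreated. The P7 SVZ library came from C57BL/6 mice and the other 6 from CD1 mice, and the cortex dissections took in the V-SVZ, white matter and grey matter above the lateral ventricles. The labels do not tie the libraries to separate animals, so p-values measure the spread between these libraries. Members had a median of 1854.5 UMIs in the adult libraries and 7352.5 in the early ones, against 3675 and 7507.5 over all kept cells. Member cells held 335497 UMIs in all in the adult libraries and 758831 in the early ones. No barcode was shared between members, 6 member barcodes also occurred in another library, and a doublet caller marked 4 members, which were kept.

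Mural cells sit on the outer face of the vascular endothelium inside a basement membrane that they share with it. Pericytes line capillaries, are recruited by endothelial PDGF-B through the receptor PDGFRB, and are needed for the blood-brain barrier. Smooth muscle cells wrap arterioles and arteries and contract through actin and myosin, and their contractile genes are classic targets of serum response factor, which binds the CArG box.

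The promoters of the smooth muscle genes Acta2, which encodes smooth muscle alpha-actin, and Myl9, which encodes a myosin regulatory light chain, are shown because both mark the smooth muscle members below and their windows hold boxes. Each is the 250 bases before the RefSeq start (GRCm38.p6), read 5′ to 3′ on the gene's strand. Acta2 lies at chr19:34255374-34255623 on the minus strand and Myl9 at chr2:156775214-156775463 on the plus strand. Capitals mark CArG boxes, including boxes with 1 letter off in the middle 6 bases.
Acta2: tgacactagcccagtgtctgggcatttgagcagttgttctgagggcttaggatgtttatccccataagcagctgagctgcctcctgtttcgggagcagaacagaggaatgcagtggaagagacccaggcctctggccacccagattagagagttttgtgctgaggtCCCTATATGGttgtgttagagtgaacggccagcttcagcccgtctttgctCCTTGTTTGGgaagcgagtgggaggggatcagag
Myl9: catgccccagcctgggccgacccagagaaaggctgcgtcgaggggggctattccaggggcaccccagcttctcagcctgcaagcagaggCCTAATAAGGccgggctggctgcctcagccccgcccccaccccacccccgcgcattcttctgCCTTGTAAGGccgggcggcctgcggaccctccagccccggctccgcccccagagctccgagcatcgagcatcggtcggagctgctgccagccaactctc

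The Acta2 stretch held 2 boxes with 1 letter off, whose first bases lay 84 and 34 bases before the start, and no exact box. The Myl9 stretch held 1 exact box, 161 bases before the start, and 1 with a letter off, 99 bases before it. A CArG box reads as a CArG box on both strands, so 1 strand covered both. An exact box was found in 1.47% of all 32851 promoters of this length, and an exact or near box in 8.59%. Of the 21 contractile genes listed for this comparison 17 had a promoter in the table, 19 promoters in all. Of those, 2 (10.5%, Filip1l and Myl9) held an exact box and 4 (21.1%, with Acta2 and Crip1) an exact or near one. Of 14 promoters of the 10 genes with the highest smooth muscle ratio in these data none held an exact box and 1 (7.14%) a near one, and the window of Cnn1, encoding the smooth muscle protein calponin, held neither. Of 22 promoters of the pericyte list none held an exact box and 3 (13.6%) a near one.

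The markers bore out the label for most members. A total of 39 members carried clear RNA of another class: 26 had at least 5 UMIs of the astrocyte genes Slc1a2 and Aldoc, 10 had at least 3 of the fibroblast genes Dcn and Lum, 2 were high in myelin genes and 1 in neuronal genes. They were 6 of 128 adult members (4.69%) and 33 of 94 early members (35.1%). Adult members were shallower, and a fixed number of UMIs is harder to reach in them. At a limit that scales with depth, 1 UMI of Slc1a2 and Aldoc per 1000 UMIs, the counts were 2 of 128 adult (1.56%) and 23 of 94 early members (24.5%), with no core cell among them. The order turned with a wider limit, 3 UMIs per 1000 of any of 7 whole lists of other classes, which 96 of 128 adult and 62 of 94 early members passed. All 22 members without a UMI of the pericyte genes Higd1b and Ndufa4l2 or of Notch3 were among these 39. The remaining 183 cells (122 adult and 61 early) are called core mural cells. This split was chosen after the data were seen.

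In the core cells the mural markers were high and the defining genes of neighbouring classes low, while some genes that the classes share were not. Rgs5, a brake on G protein signalling in mural cells, reached 8307 UMIs of the gene per 1000000 UMIs (CPM) in pooled adult core cells and 8000 CPM in early ones, against 20.8 CPM in adult and 5.0 CPM in early endothelial cells. Endothelial cells were chosen with at least 5 UMIs of Cldn5 and Pecam1 and at most 1 UMI of the 5 gate genes together. The Rgs5 contrast was therefore set by the choice of cells. Higd1b, which is not in the rule, reached 2527 CPM in adult and 1899 CPM in early core cells. The endothelial gene Cldn5 had 0 UMIs in adult core cells and 1 in early ones, and the fibroblast gene Dcn had 5 and 4. Slc1a2 and Aldoc together had 36.6 CPM in adult and 36.7 CPM in early core cells. Cldn5 belongs to the member rule and Dcn, Slc1a2 and Aldoc to the core limits, so these low levels follow from the choice of cells. The whole astrocyte list summed to 3679 CPM in adult and 1274 CPM in early core cells, of which 98.9% and 92.9% came from 2 of its 14 genes; without these it summed to 40.0 and 90.7 CPM. The perivascular fibroblast list summed to 2793 CPM in adult core cells, 92.6% of it from Mgp and Col1a2, and to 3646 CPM in early ones, 82.8% of it from Mgp and Col3a1. All 183 core cells had a UMI of Rgs5, 170 of Pdgfrb, 162 of Vtn, 101 of Kcnj8 and 74 of Abcc9.

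The threshold of 5 gate UMIs cut through astrocyte-marked cells in the early libraries. Of the 18 members with exactly 5 gate UMIs, 17 carried RNA of another class, as did 42 of the 43 cells just outside with 4. Of the 190 members with 10 or more gate UMIs, 15 did. Core cells lay well above the threshold, with a median of 36 gate UMIs in adult cells and 102 in early cells.

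**Figure D1:**
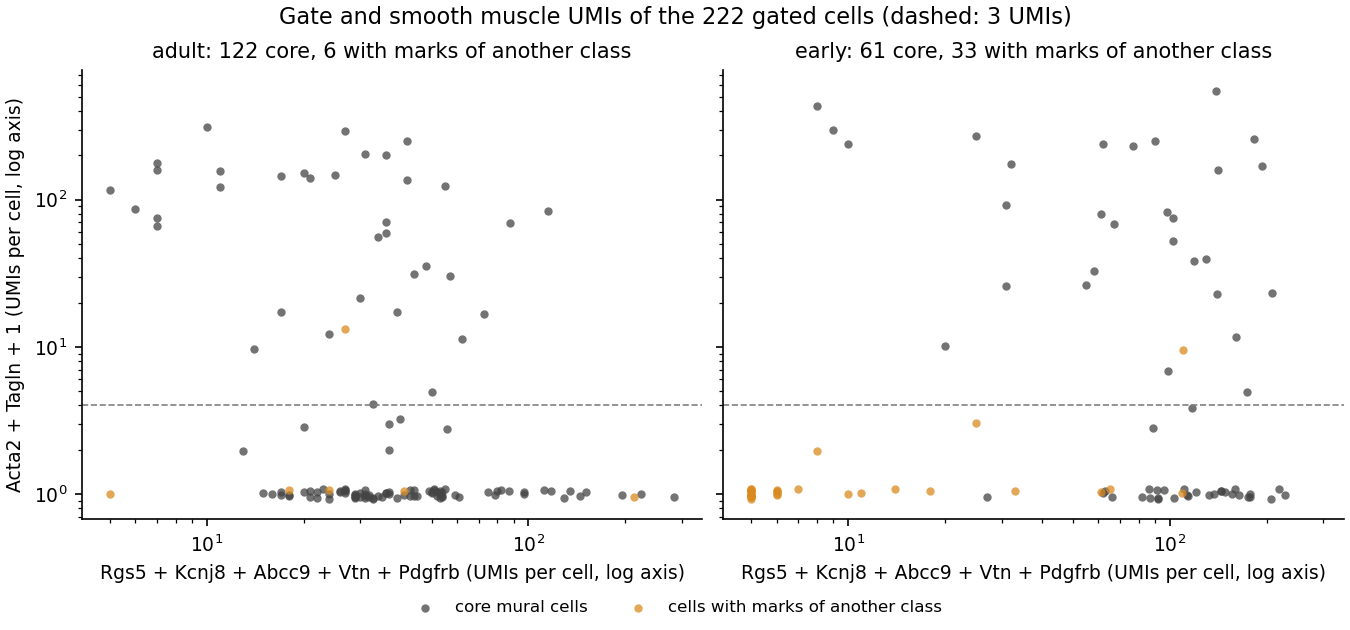
UMIs of Acta2 and Tagln (plus 1) against UMIs of the 5 gate genes in each of the 222 cells, adult left and early right, on log axes. Points are jittered vertically and orange points carry RNA of another class; they crowd at 5 gate UMIs in the early panel, and cells of intermediate Acta2 and Tagln are few.

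Smooth muscle cells stood apart with few cells between. Of the adult members 34 had at least 10 UMIs of Acta2 and Tagln, 3 had 3 to 9, 6 had 1 or 2 and 85 had none. Of the early members 26 had at least 10, 5 had 3 to 9, 3 had 1 or 2 and 60 had none. The median smooth muscle cell had 71 such UMIs in the adult libraries and 72 in the early ones. Core smooth muscle cells numbered 36 adult and 30 early, and core other mural cells 86 adult and 31 early. Smooth muscle cells were also the deeper ones in the adult libraries, with a median of 4431 UMIs against 1588 for other mural cells; early medians were 7660 and 7246.

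Pooled over core cells of a stage, most contractile genes followed Acta2 and Tagln. Of the 19 others on the list, 16 were higher in smooth muscle than in other mural cells, with the whole 95% interval of the ratio above 1, in the adult libraries and 16 in the early ones. Because the split was made on 2 of these genes in the same cells, the ratios are descriptions with no test, and intervals cover counting error only. Myh11, the smooth muscle myosin heavy chain, had 1031 CPM in adult smooth muscle cells and 6.76 CPM in adult other mural cells, a ratio of 153 (95% interval 27.0 to 6063). Its early levels were 662 CPM in smooth muscle and 4.40 CPM in other mural cells, a ratio of 151 (26.6 to 5985), and each of the lower levels rested on 1 UMI. Csrp1, a LIM protein of smooth muscle, was 44.0 times as high in smooth muscle as in other mural cells in the adult and 29.6 times in the early libraries. For Mustn1 the ratios were 21.9 and 43.8, for Crip1 13.0 and 21.2, and for tropomyosin Tpm2 13.4 and 11.5. Myl9 separated the kinds less, by 2.49 in the adult and 5.51 in the early libraries, since other mural cells held 3196 CPM in the adult and 1245 CPM in the early libraries. Cald1, encoding the actin-binding protein caldesmon, went the other way in the adult libraries, with a ratio of 0.768 (0.666 to 0.886), and its early ratio was 0.958 (0.858 to 1.07). The ratios of Smtn, or smoothelin, were 1.24 and 1.69, and both intervals held 1.

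Both subunits of an ATP-sensitive potassium channel, which are gate genes, were higher in other mural cells. Kcnj8, the pore subunit, had 13.1 CPM in adult smooth muscle cells and 1385 CPM in adult other mural cells, 105 times as high in other mural cells. Abcc9, the regulatory subunit, had no UMI in adult smooth muscle cells and 534 CPM in other mural cells, at least 27.1-fold lower in smooth muscle. Kcnj8 and Abcc9 are neighbours on mouse chromosome 6, 16247 bases apart in mm10. In the early libraries the same contrasts were 8.59-fold for Kcnj8 and 8.81-fold for Abcc9. The extracellular matrix gene Vtn, encoding vitronectin, was 19.6 times as high in adult and 2.71 times as high in early other mural cells as in smooth muscle cells.

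Of the 16 genes of the pericyte list 12 were lower in adult smooth muscle, with the whole interval of the ratio below 1, and 11 in early smooth muscle. The transport ATPase gene Atp13a5 was 18.2-fold and the UDP-sugar receptor gene P2ry14 was 17.2-fold higher in adult other mural cells than in adult smooth muscle, and 6.81- and 1.69-fold in the early libraries. The amino acid transporter gene Slc6a20a was 45.3-fold higher in the adult and 4.40-fold in the early libraries. Ggt1 and Cthrc1 had no UMI in adult smooth muscle, at least 12- and 18.5-fold lower than in other mural cells. Some genes of the list separated the kinds less, or in 1 stage only. Smooth muscle over other mural ratios of Notch3 were 0.708 (0.509 to 0.980) in the adult and 1.16 in the early libraries. Those of Cspg4, which encodes the proteoglycan NG2, were 0.945 and 0.778, and both intervals held 1. The gate gene Rgs5, which is not on the list, had ratios of 0.631 (0.581 to 0.684) and 1.16. Mcam, a cell adhesion gene of the list, was higher in smooth muscle, by 2.41 times in the adult and 1.81 times in the early libraries. Slc38a11 had ratios of 0.698 in the adult and 2.56 (1.72 to 3.90) in the early libraries, and Rgs4 of 1.15 and 0.610. Notch3 and Slc38a11 are among the 12 genes counted as lower in adult smooth muscle.

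**Figure D2:**
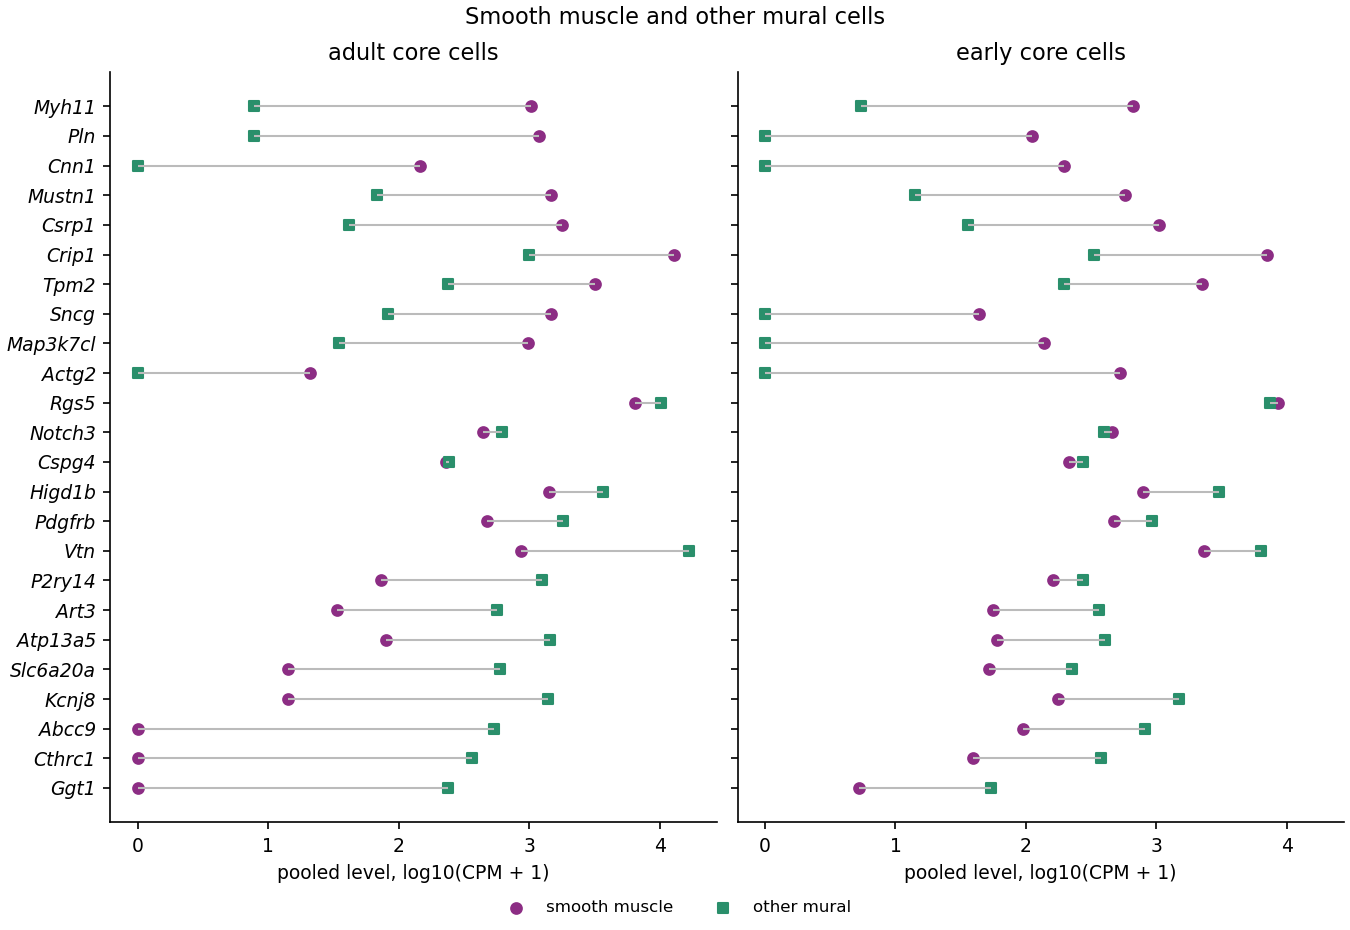
Pooled level in core smooth muscle cells (circles) and core other mural cells (squares) on a log10(CPM + 1) axis, adult left and early right, with 1 gene per line. Contractile genes at the top lie to the right in smooth muscle, Rgs5, Notch3 and Cspg4 nearly coincide, and Kcnj8, Abcc9, Cthrc1 and Ggt1 at the bottom lie far to the left in adult smooth muscle.

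The early smooth muscle cells differed among themselves by library. The 4 cells from P7 SVZ had 715 CPM of Acta2, where the P2, P7 and P15 cortex cells had 17469, 8525 and 15656 CPM. The same 4 cells had 357 CPM of Crip1 and no UMI of Myh11. They held 596 CPM of Kcnj8, 655 CPM of Abcc9 and 7356 CPM of Vtn, where smooth muscle cells of the 3 early cortex libraries had at most 254 CPM of Kcnj8, none of Abcc9 and at most 2231 CPM of Vtn. All 22 Abcc9 UMIs of early core smooth muscle came from them. Early core other mural cells, pooled, had 1495 CPM of Kcnj8, 822 CPM of Abcc9, 6328 CPM of Vtn and 334 CPM of Crip1. The name smooth muscle, which rests on 3 UMIs of Acta2 and Tagln, is therefore in doubt for these 4 cells. They were kept as 1 of the 4 early libraries in the smooth muscle fit below. Strain and dissection both differ for this library and cannot be told apart. Actg2, the enteric smooth muscle actin, had 3001 CPM at P2 (3 cells), 468 in P7 cortex and 156 at P15 in cortex smooth muscle cells. All 124 Actg2 UMIs of early core smooth muscle came from these cortex libraries. It had 38.8 CPM in P60 white matter, with none in the other 2 P60 libraries. A trend with age was not tested.

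Adult and early members were then compared gene by gene on UMIs summed per library, 3 adult against 4 early libraries (edgeR quasi-likelihood test, Benjamini-Hochberg adjusted p under 0.05). Over all gated members 151 of 2881 tested genes (5.24%) passed, 60 higher in adult cells (2.08%) and 91 lower (3.16%). The largest rises included Sncg, Casq2, Car4 and Perp. Among the falls were genes of dividing cells, of the basement membrane and of astrocytes.

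Car4, which encodes a membrane carbonic anhydrase, averaged 802 ± 279 CPM in adult and 47.8 ± 20.9 CPM in early members (SD, n = 3 and 4). Its log2 change was 4.0 (SE 0.42, edgeR adjusted p = 0.0063), and it passed in all 7 fits that left out 1 library. Perp, encoding a membrane protein of desmosomes, averaged 385 ± 70.3 CPM in adult and 28.1 ± 36.9 CPM in early members (log2 change 3.87, SE 0.66). Tbx3os1, an antisense transcript that overlaps the start of Tbx3 by 697 bases in mm10, averaged 360 ± 131 CPM and 35.5 ± 19.8 CPM (log2 change 3.45, SE 0.45). Whether strand was used in counting is not given in the sources used here, so reads of Tbx3os1 and Tbx3 cannot be told apart in the overlap. Rgs4, a brake on G protein signalling in pericytes, averaged 1804 ± 293 CPM in adult and 457 ± 103 CPM in early members (log2 change 1.99, SE 0.28). Without 1 library Perp passed in 4 of 7 fits, Tbx3os1 in 6 and Rgs4 in 6. For each of these 4 genes every adult library lay above every early one. Such separation was a condition for naming Car4, Perp and Tbx3os1 among the largest rises. It was found for 597 of all 2881 tested genes (20.7%), in either direction.

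The RNA of other classes moved with stage in this comparison. The astrocyte genes Slc1a3 and Aldoc were lower in adult members, by 3.54 and 3.51 on the log2 scale (SE 0.57 and 0.72, edgeR adjusted p = 0.0171 and 0.0252). The lipid carrier gene Apoe averaged 530 ± 541 CPM in adult and 4103 ± 1868 CPM in early members (SD, n = 3 and 4). Its log2 change was -2.92 (SE 0.68, edgeR adjusted p = 0.0395), and -0.64 in core cells (adjusted p = 0.714). Without 1 library Slc1a3 passed in 6 of 7 fits, Aldoc in 4 and Apoe in 3. Early cells outside the members with at least 5 UMIs of Slc1a2 and Aldoc and at most 1 gate UMI served as astrocyte-marked cells. Of the 91 genes that fell, 38 were at least 5 times as high in these cells as in early core cells, against 0 of the 60 that rose. The share over all 2881 tested genes is not given here, and the part of astrocyte RNA in the falls was not tested. Of the same 91, 50 were not tested in core cells for low counts. In core cells 46 of 2338 tested genes passed (1.97%), 8 higher (0.342%) and 38 lower (1.63%), with libraries of at least 10 cells, and 38 of the 46 were among the 151. The 8 that were higher were Perp, Car4, Tbx3os1, Cystm1, Xist, P2ry14, Hrct1 and Rgs4.

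Xist, the RNA of the inactive X chromosome, averaged 2269 ± 139 CPM in adult and 506 ± 256 CPM in early members (SD, n = 3 and 4), and passed in 3 of 7 fits without 1 library. The labels give no sex, and the part of the sex of the animals in other differences was not tested. Single libraries moved the number of calls. Over all gated members 1 gene passed without P60 white matter, 24 without P60 cortex, 32 when P60 grey matter was left out, 39 without P7 cortex, 83 without P2 cortex and 335 without P15 cortex. In core cells the numbers were 0 without P60 cortex or P60 white matter, 1 without P7 cortex, 15 when P60 grey matter was left out and 145 without P15 cortex; at an unadjusted p under 0.05 the 2 fits with 0 calls had 264 and 227 genes.

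Because the share of smooth muscle differs between libraries, the 2 kinds of core cell were also fitted apart, as alternatives chosen after the data were seen. Core smooth muscle cells gave libraries of 3 or more cells, 3 adult and 4 early. Of 895 genes tested there, 41 passed (4.58%), 18 higher (2.01%) and 23 lower (2.57%) in adult cells. Without P60 cortex or P60 white matter 11 passed, without P7 cortex 21, without P7 SVZ 60, and 25 when P60 grey matter was left out. The genes that passed included 3 contractile genes, all higher in adult cells, and 6 genes of the basement membrane list and 3 of the fibrillar collagen and elastin list, all lower.

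Sncg, which encodes gamma-synuclein, had 2578 CPM in P60 grey matter smooth muscle, 1464 in P60 cortex and 1151 in P60 white matter, against none at P2, in P7 cortex or in P7 SVZ and 97.2 CPM at P15. Every adult library was above every early one (log2 change 5.43, SE 0.74, edgeR adjusted p = 0.00341), and the gene passed in all 7 fits that left out 1 library. Pln encodes phospholamban, the regulator of the calcium pump of the sarcoplasmic reticulum. It had 1051, 875 and 1383 CPM in the adult libraries (cortex, grey matter, white matter), against 82.2 CPM at P2, none in either P7 library and 233 CPM at P15. Its log2 change was 3.56 (SE 0.76, edgeR adjusted p = 0.0253). Map3k7cl had 1070, 921 and 944 CPM in the same adult order, against 123, 160, 0 and 165 CPM at P2, in P7 cortex, in P7 SVZ and at P15 (log2 change 2.99, SE 0.49). The groups did not overlap for either gene, and without 1 library Pln passed in 3 of 7 fits and Map3k7cl in 6 of 7. Lack of overlap was a condition for naming Sncg, Pln and Map3k7cl among the largest rises of this fit.

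These 3 were the only contractile genes past the threshold out of 17 tested of 21 listed, and the list's median log2 change was 0.96, against -0.03 over all 895 genes. Acta2 itself had 14307, 21316 and 12812 CPM in the adult libraries, within the span of the early ones with P7 SVZ at 715 CPM. Myh11 had 1033, 1105 and 1008 CPM in the adult libraries and 740, 267, 0 and 1147 CPM in the early ones, again overlapping. Of the pericyte list, 1 of 9 tested genes passed: Rgs4, with 2009, 1657 and 1991 CPM in the adult libraries, against 247, 601, 447 and 613 CPM in the early ones (log2 change 1.96, SE 0.31, edgeR adjusted p = 0.00701).

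Of the 18 genes of the basement membrane list 9 were tested, of which 6 fell and none rose, with a median log2 change of -1.64. Col4a1, encoding a chain of type IV collagen, had 244, 46.0 and 142 CPM in adult smooth muscle (cortex, grey matter, white matter), against 2261, 1416, 5450 and 1147 CPM at P2, in P7 cortex, in P7 SVZ and at P15. The ranges did not overlap, which was a condition for naming it among the largest falls (log2 change -3.97, SE 0.69, edgeR adjusted p = 0.00833). Col4a2, its partner chain, averaged 110 ± 113 CPM in adult and 1437 ± 655 CPM in early smooth muscle (SD, n = 3 and 4; log2 change -3.44, SE 0.63). The genes of the 2 chains lie head to head on chromosome 8 and overlap by 22 bases at their starts in mm10. Fn1, encoding fibronectin, had no UMI in adult smooth muscle and 51 in early cells, at least 11.0-fold lower. It passed the filter on low counts through the early libraries alone. Sparc, a collagen-binding matrix protein, was 1140 ± 116 CPM against 3351 ± 655 CPM (log2 change -1.54, SE 0.27). Col18a1 and the collagen chaperone gene Serpinh1 also fell, by 2.97 and 1.63 on the log2 scale (SE 0.58 and 0.35). Leaving out 1 library ended several of these calls: Col4a1 and Col4a2 passed in 6 of 7 fits, Sparc in 5 of 7, Serpinh1 in 2 of 7, Col18a1 in 3 of 5 and Fn1 in 1 of 4.

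The fibrillar collagen and elastin list had 23 genes, of which 3 passed the filter on low counts and were tested. All 3 fell in adult smooth muscle. Col3a1 and Eln, with few adult UMIs, passed that filter through the early libraries, so the count says little about the list. Col3a1 had 18.8, 0 and 25.9 CPM in the adult libraries, 3 UMIs in all, against 740, 454, 804 and 515 CPM in the early ones; the early level was 28.5 times the adult one (9.53 to 140). Col1a2 averaged 118 ± 37.6 CPM in adult and 674 ± 238 CPM in early smooth muscle (SD, n = 3 and 4; log2 change -2.42, SE 0.41) and passed in 5 of 7 fits without 1 library. Both are also on the perivascular fibroblast list, which summed to 3249.5 CPM in adult and 5752 CPM in early core smooth muscle, most of it Mgp and Col1a2; its part in these differences was not tested. Eln, which encodes elastin of the arterial wall, had 75.1, 46.0 and 12.9 CPM in the adult libraries, against 2836 CPM at P2, 3314 in P7 cortex, 0 in P7 SVZ and 1303 at P15. Its groups overlapped because of P7 SVZ (log2 change -5.37, SE 1.26, edgeR adjusted p = 0.0378), and it passed in 1 of the 4 fits without 1 library in which it was tested. Fabp5, a fatty acid binding protein, had 1 UMI in adult smooth muscle and 231 in early cells, and the early level was 149 times the adult one (26.5 to 5925).

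**Figure D3:**
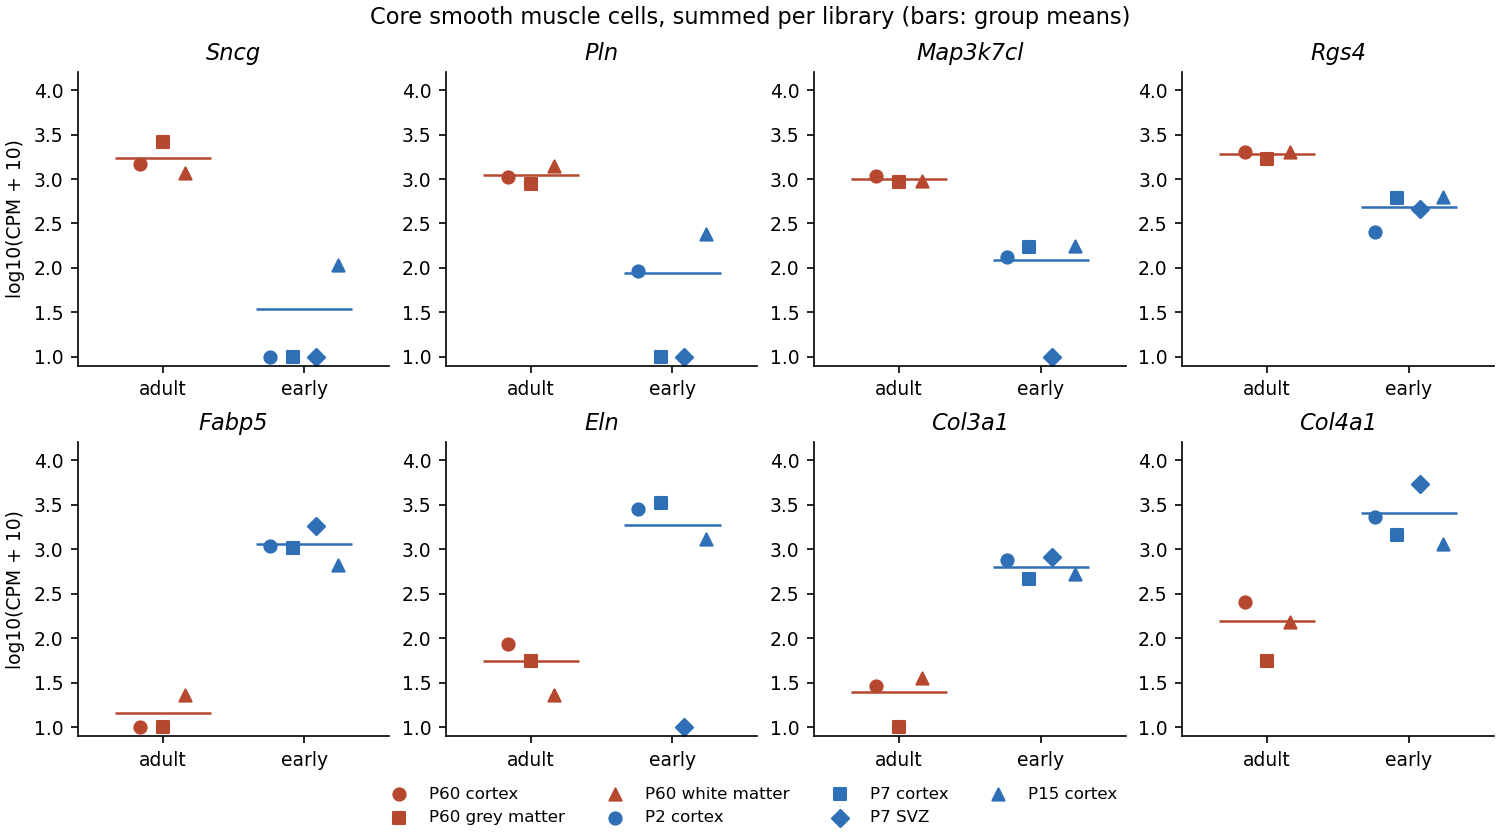
Level of 8 genes in core smooth muscle cells, summed per library, on a log10(CPM + 10) scale; each point is 1 library, adult left and early right, and bars are the means of CPM. Sncg, Pln, Map3k7cl and Rgs4 lie higher in all 3 adult libraries; Fabp5, Col3a1 and Col4a1 lie lower, and Eln does apart from P7 SVZ.

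Among core other mural cells, which carried the pericyte genes, only P7 cortex and P7 SVZ among the early libraries had the minimum of 5 cells. The comparison is therefore 3 adult libraries against P7 alone. Of 1802 genes tested 126 passed (6.99%), 48 higher (2.66%) and 78 lower (4.33%). Without P60 cortex 35 passed, without P60 white matter 40, and without P7 cortex 227. They included 17 of 21 tested G2M genes (52 listed) and 3 of 12 tested basement membrane genes (18 listed), all lower in adult cells. They also included 3 of 16 genes of the pericyte list, all higher.

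Car4 had 1119, 1769 and 1112 CPM in adult other mural cells (cortex, grey matter, white matter), against 63.0 CPM in P7 cortex and 55.7 CPM in P7 SVZ. The separation was 4.35 on the log2 scale (SE 0.49, edgeR adjusted p = 0.00317). The P2 library outside the fit (3 cells) had 116 CPM and the P15 library (2 cells) 787 CPM. Perp had 298, 524 and 480 CPM in the adult libraries, against 12.6 and 15.9 CPM at P7 (log2 change 4.62, SE 0.60, edgeR adjusted p = 0.00317). It had no UMI in the P2 cells and 197 CPM, from 1 UMI, in the P15 cells. Casq2, a calcium-storing protein of the sarcoplasmic reticulum, had 149, 1048 and 240 CPM in the adult libraries, against 0 and 7.95 CPM at P7 (log2 change 5.75, SE 1.17). Grey matter alone, with 6 cells, set its high end.

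The pericyte list had 16 genes tested, of which 3 rose and none fell, with a median log2 change of 0.84 against -0.03 over all genes. P2ry14 had 1100, 2424 and 1112 CPM in the adult libraries, against 391 CPM in P7 cortex and 183 CPM in P7 SVZ (log2 change 2.35, SE 0.51, edgeR adjusted p = 0.0195), and passed in 4 of 5 fits without 1 library. Slc38a11, a putative amino acid transporter gene, had 1361, 459 and 1504 CPM, against 63.0 and 143 CPM (log2 change 3.33, SE 0.62). Ggt1, a glutathione-degrading ectoenzyme, averaged 295 ± 142 CPM in adult and 50.7 ± 18.2 CPM in P7 cells (SD, n = 3 and 2; log2 change 2.17, SE 0.58), and passed in 1 of 5 fits without 1 library. Atp13a5 had 1044, 721 and 1833 CPM in the adult libraries, against 126 and 596 CPM at P7, and did not pass.

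Of 7 tested transporters Slc22a8, an organic anion transporter, also rose, to 461 ± 197 CPM in adult cells against 60.3 ± 49.6 CPM at P7 (SD, n = 3 and 2; log2 change 2.59, SE 0.59), and passed in 3 of 5 fits without 1 library. Among 7 channel genes 1 rose, Ano1, a calcium-activated chloride channel (log2 change 3.24, SE 0.85), called in 1 of 5 fits without 1 library. Of 12 secreted and lipid-handling genes tested beside Vtn, 4 rose and 1 fell. Cxcl12, a chemokine, averaged 324 ± 88.7 CPM in adult and 20.6 ± 6.58 CPM in P7 cells, and Ackr3, encoding its scavenging receptor, rose as well (log2 changes 3.81 and 4.37, SE 0.62 and 1.01). Cst3, the secreted protease inhibitor cystatin C, averaged 5354 ± 961 CPM in adult and 1335 ± 54.9 CPM in P7 cells (log2 change 1.93, SE 0.37). Over all gated members its log2 change was -0.64 (edgeR adjusted p = 0.256), the opposite direction. Cp, or ceruloplasmin, and Nbl1 rose by 2.24 and 1.89 on the log2 scale (SE 0.49 and 0.49), and Serpine2 fell by 2.88 (SE 0.56). Without 1 library Cst3, Cp and Serpine2 passed in 3 of 5 fits and Nbl1 in 2.

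Mitotic genes fell together in the other mural cells. Of 52 listed G2M genes 21 passed the filter on low counts and were tested. Of these, 17 were lower in adult cells and none higher, with a median log2 change of -4.84. Genes without an adult UMI passed that filter through the P7 libraries alone, so only a fall could be called for them. Cdk1, the kinase that starts mitosis, had no UMI in any adult library, against 441 CPM in P7 cortex and 342 CPM in P7 SVZ, at least 18.8-fold lower. Ube2c, Top2a and Mki67 also had none in the adult libraries, at least 21.9-, 15.4- and 11.1-fold lower, and without 1 library Top2a passed in 4 of 5 fits and Mki67 in 2 of 4. Cells of P2 and P15 were outside the fit, and in these Ube2c and Top2a had no UMI either. Hmgb2, a chromatin protein of dividing cells, had 112, 197 and 177 CPM in the adult libraries, against 1046 and 1042 CPM at P7 (log2 change -2.79, SE 0.42). Single adult cells were far shallower, and the part of depth in these falls was not tested. The fits used sums over cells. The sums held 53639, 15265 and 79112 UMIs in the adult libraries (cortex, grey matter, white matter). They held 79348 UMIs in P7 cortex and 125760 in P7 SVZ, and the lower bounds of the fold changes are scaled by these sums. Hmgb2 is the called G2M gene with the most adult UMIs (23).

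Basement membrane collagen was lower here as well. Col4a1 had 317, 197 and 392 CPM in adult other mural cells, against 1676 CPM in P7 cortex and 3006 CPM in P7 SVZ (log2 change -2.96, SE 0.46, edgeR adjusted p = 0.00585). The 3 P2 cells and 2 P15 cells had 2151 and 1377 CPM. Col4a2 averaged 145 ± 71.1 CPM in adult and 1092 ± 64.4 CPM in P7 cells (SD, n = 3 and 2; log2 change -2.78, SE 0.44). Lamb1, a laminin chain, had 4 adult UMIs, all in white matter, and 368 ± 75.2 CPM at P7 (log2 change -3.81, SE 0.73), and passed in 4 of 5 fits without 1 library. These were the 3 that passed out of 12 tested members of the list, whose median log2 change was -1.33.

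**Figure D4:**
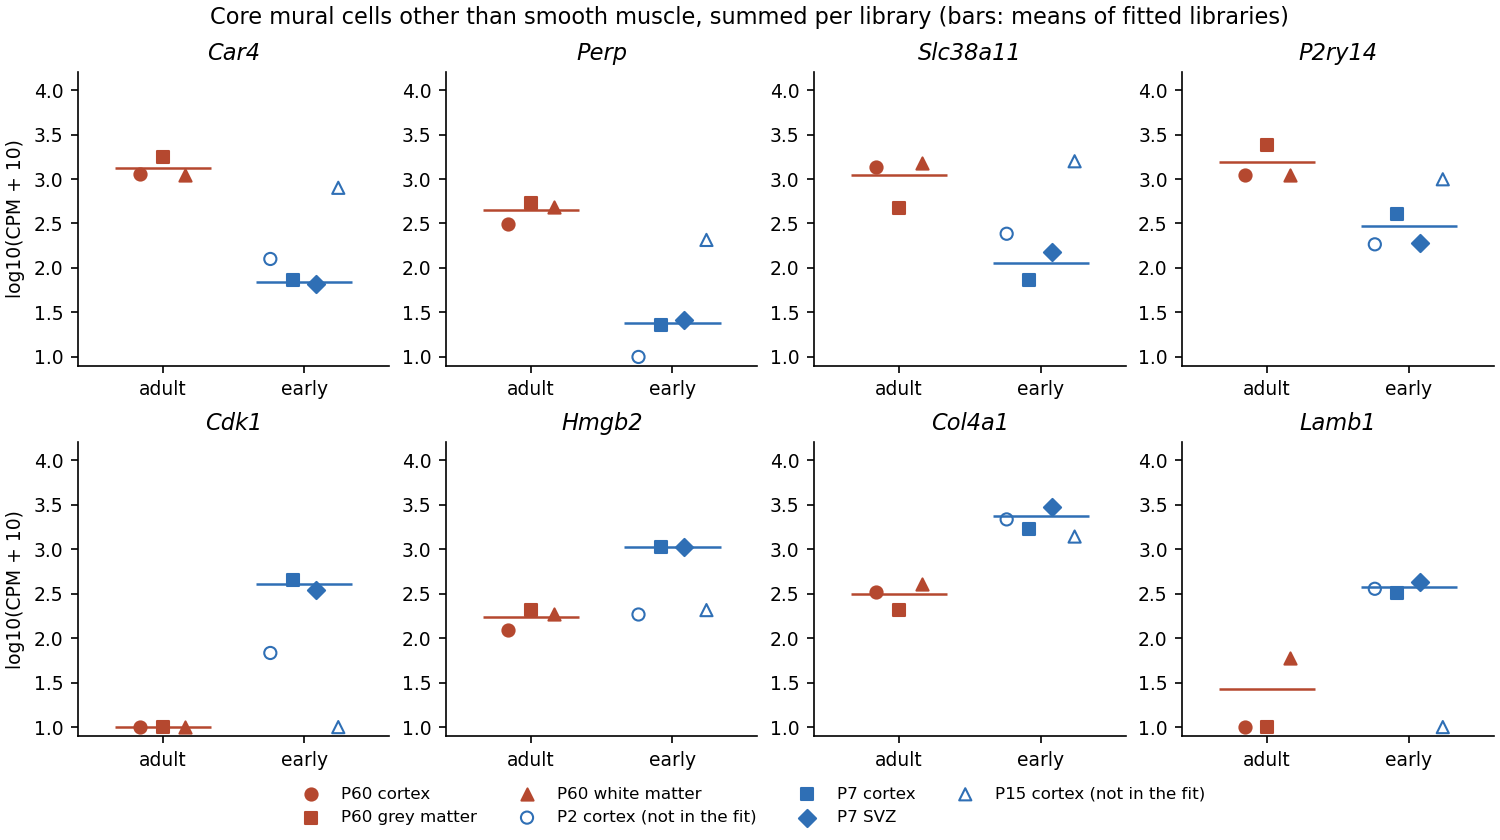
Level of 8 genes in core mural cells other than smooth muscle, summed per library, on a log10(CPM + 10) scale; open symbols are P2 and P15, outside the fit, and bars are the means of fitted libraries, adult left and early right. Car4, Perp, Slc38a11 and P2ry14 lie higher and Cdk1, Hmgb2, Col4a1 and Lamb1 lower in the 3 adult libraries than at P7, and the open P15 symbol, from 2 cells, lies near the adult level for all but Col4a1.

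In several lists no gene passed, where 6.99% of all tested genes did in other mural cells and 4.58% in smooth muscle, so the counts say little about these lists. None of 5 tested genes of PDGF, TGF-beta and angiopoietin signalling, of 6 Notch genes, of 16 transcription factor genes or of 18 dissociation-response genes passed in other mural cells. In core smooth muscle none of 4, 4, 14 and 15 genes of the same lists passed. At an unadjusted p under 0.05 other mural cells had 2, 1, 1 and 0 such genes, and smooth muscle 0, 0, 1 and 0. In simulated counts for the comparison of all gated members, 6 of 100 genes changed 2-fold were called and 63 of 100 changed 4-fold. Notch3, the receptor that mural cells need for their maturation, had 634, 524 and 632 CPM in adult other mural cells, against 315 and 342 CPM at P7. The gate genes, given as a description, overlapped between adult and P7 other mural cells for Kcnj8 (1226 to 1965 CPM in adult and 1217 to 1777 CPM at P7) and Abcc9 (197 to 619 and 365 to 1121 CPM). Vtn ran from 10682 to 36816 CPM in the adult libraries and from 6083 to 7058 CPM at P7.

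The share of mural cells among kept cells varied more among the adult libraries than among the early ones. Their share was 3.41% in P60 white matter, 1.57% in P60 cortex and 0.585% in P60 grey matter. It was 0.396% at P2, 0.725% in P7 cortex, 0.778% in P7 SVZ and 0.767% at P15. The means were 1.86 ± 1.44% in the adult and 0.667 ± 0.182% in the early libraries (SD, n = 3 and 4), a difference of 1.19 percentage points (exact permutation test over 35 splits, two-sided p = 0.229; the smallest p it allows is 0.0571). Smooth muscle made up 36.4% of gated cells in P60 grey matter, 30.6% in P60 cortex and 26.5% in P60 white matter. It made up 23.1% at P2, 30.0% in P7 cortex, 13.8% in P7 SVZ and 68.2% at P15, so the early libraries spanned the adult ones (exact permutation p = 0.971). In core cells the differences of the means were 1.33 and -17.7 percentage points for the mural and smooth muscle shares (exact permutation p = 0.114 and 0.4). Shares of captured cells also depend on dissection and dissociation, which were not tested.

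The mean share of members with RNA of S and G2M genes was lower in the adult libraries, without a p under 0.05. After thinning every cell to 1000 UMIs, cells with at least 3 such UMIs were 18.2% in P60 grey matter, 18.0% in P60 white matter and 12.5% in P60 cortex. The early shares were 23.1% at P2, 30.0% in P7 cortex, 37.9% in P7 SVZ and 22.7% at P15. The adult mean was 16.2 ± 3.24% and the early mean 28.4 ± 7.16% (SD, n = 3 and 4). All 3 adult libraries lay below all 4 early ones, for which the exact permutation test gave its smallest possible p of 0.0571, and 8 shallower adult cells were left out. In core cells 2 of the 3 adult libraries lay below all early ones (a difference of the means of -15.8 percentage points, exact permutation p = 0.114), with a gate of 10 UMIs also 2 (p = 0.114), and with a gate of 3 UMIs 1 (p = 0.171). Without the members with other-class RNA, 2 adult libraries did so as well (exact permutation p = 0.4). Unthinned, at unequal depth, the means were 60.2% and 96.6%. Endothelial cells, treated in the same way, had 22.0% in the adult and 21.4% in the early libraries, while such cells were 1070 of 6873 adult and 4711 of 13875 early kept cells of all classes. Members pooled over libraries had 19 of 120 adult and 28 of 94 early, so the adult share was lower over all kept cells as well. By kind, the shares were 17 of 78 adult and 14 of 31 early core other mural cells, and 1 of 36 adult and 6 of 30 early core smooth muscle cells. Adult core other mural cells held no UMI of Cdk1, Ube2c, Top2a or Mki67, and 23 of Hmgb2. The shares are therefore not counts of dividing cells. Free RNA from other cells can add UMIs of S and G2M genes, and its part was not tested.

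**Figure D5:**
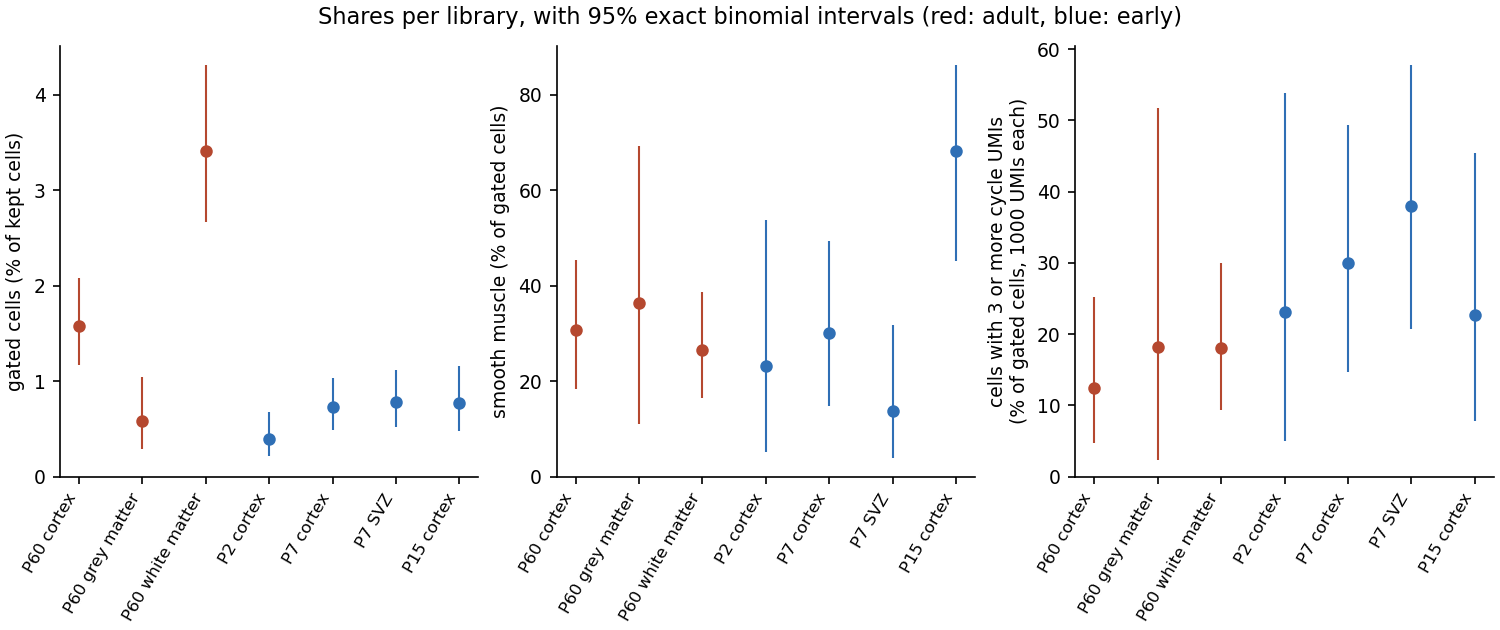
Shares per library with 95% exact binomial intervals: gated cells among kept cells, smooth muscle among gated cells, and gated cells with at least 3 cell-cycle UMIs at 1000 UMIs each, adult libraries left in red and early ones right in blue. White matter is highest in the first panel, P15 cortex in the second, and all adult libraries lie lowest in the third.

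Endothelial cells, 188 adult and 168 early, gave a second vascular class, and 5 libraries (the 3 adult ones, P7 cortex and P15 cortex) had at least 10 cells of both classes. The difference between the stage change of mural cells and that of endothelial cells was tested with the library as a term (edgeR quasi-likelihood test). Of 4964 genes 92 passed (1.85%), 34 with a more positive change in mural cells and 58 with a more negative one. The number that passed was 267 without P15 cortex, 46 without P60 white matter, 40 without P60 cortex and 21 when P60 grey matter was left out. The 7 genes described next, all with large values, were each at a low level in at least 1 of the 4 groups, so their fitted size depends on the prior count.

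Itih5, which encodes a hyaluronan-binding matrix protein, averaged 30.8 CPM in adult and 186 CPM in early mural cells, while endothelial cells held 421 CPM in the adult and 18.6 CPM in the early libraries. The classes thus moved in opposite directions (difference of log2 changes -6.84, SE 0.75, adjusted p = 0.000229). S100a10, a protein partner of annexin A2, averaged 19 CPM in adult and 137 CPM in early mural cells, against 79.4 and 6.36 CPM in endothelial cells of the same stages (difference -6.94, SE 0.89, adjusted p = 0.000615). Hopx, a homeodomain protein without DNA binding of its own, averaged 122 CPM in adult and 49.6 CPM in early mural cells, against 1.61 and 107 CPM in endothelial cells (difference 6.85, SE 0.93, adjusted p = 0.00087). All 3 also passed with core mural cells in place of all members.

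Meox1 had 14.6 CPM in adult and none in early mural cells, against 18.1 and 238 CPM in endothelial cells (difference 8.97, adjusted p = 0.0079), so its value rested on the endothelial side. Ptgds, Edn3 and Dnm3 (differences -8.68, -8.65 and -7.20) did not pass with core mural cells, where their adjusted p-values were 0.598, 0.14 and 1.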

How the data were processed

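The values are UMI counts, whole and not normalized, as the authors deposited them. Reads were processed by Cell Ranger (3.0.2 in the headers of the matrices), with mm10 as the build in the submitters' processing notes. Of 25747 barcodes, 1304 had too few genes (limit 500) and 4391 too many mitochondrial UMIs (limit 10%), and 21002 were kept. Scrublet (scanpy 1.11.5, assumed rate 0.06 per library) marked 305 kept cells (1.45%) as doublets, and these were kept in the main results. Member counts were summed per library (40043 to 260502 UMIs, so that 3 counts equal 11.5 to 74.9 CPM) and compared in edgeR 4.0.16 with TMM scaling, filterByExpr and at least 10 cells per library, after a test on simulated counts. CPM are scaled by all UMIs of the summed cells. A group without a UMI was set to 3 counts over the group for a fold change. Shares have exact (Clopper-Pearson) 95% intervals. Intervals and floors cover counting error only.

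The members, gene lists and tests were chosen with earlier results of these data known. Named genes were the gate genes; the 12 largest rises and falls past the threshold without overlap and with at least 50 CPM; the 4 most abundant and all called genes of each list; the 8 largest interactions, of which 1 is not reported here; and the 10 largest ratios each way between smooth muscle and other mural cells. A few other listed genes, such as Notch3, Myh11 and Atp13a5, were named after their values were seen. Core cells lacked at least 3 UMIs of Dcn and Lum, 5 of Slc1a2 and Aldoc, 10 of Tubb3, Stmn2 and Snap25, and 20 of myelin genes. Positions come from GENCODE M21 (mm10) and promoters from RefSeq (GRCm38.p6). Python 3.11.15, numpy 2.4.6, scipy 1.17.1, R 4.3.3, DESeq2 1.42.0 and matplotlib 3.10.9 were used. The gene annotation release of the counts is not given in the sources used here.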

Additional observations from a re-analysis of the deposited data

Results flagged for a closer look

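In the early libraries 1 of the 4 lay far from the other 3 for 7 of the 44 gene levels and 3 shares examined, with a gap of over 0.829 of the whole range. Chance gives about 1 in 20 for 4 draws from 1 normal distribution. These 4 libraries differ in age, dissection or strain, and some levels were near 0, so the 7 cannot be set against that rate. The share of mural cells was low at P2 (gap 0.860 of the range). In gated members Abcc9 was high in P7 SVZ (0.866), and Sncg was at 0 in 3 libraries and present at P15 (1). Casq2 (0.903), Perp (0.937) and S100a10 (0.969) were highest at P15, and Hopx (0.852) in P7 SVZ.

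The stage change of mural cells differed from that of endothelial cells, by an interaction test, for Meox1 (8.97 on the log2 scale), Ptgds (-8.68), Edn3 (-8.65), Dnm3 (-7.20), S100a10 (-6.94), Hopx (6.85) and Itih5 (-6.84). Ptgds, S100a10, Hopx and Itih5 passed in all 5 fits that left out 1 library. Meox1 passed in 3, and Edn3 and Dnm3 in 1.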

How the results depend on the processing

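The count of genes that differed between adult and early members was the least stable value. Against 151, it was 237 with DESeq2, 539 without the filter on low counts, 653 with a gate of 3 UMIs and 228 without smooth muscle cells. It was 33 with a gate of 10 UMIs, 62 with the gate on thinned cells, 7 with a mitochondrial limit of 5%, 6 with at least 20 cells per library (2 adult and 3 early), 46 in core cells, 50 in core cells with at least 5 per library and 41 in core smooth muscle. Leaving out 1 library gave 1 to 335, and in core cells 0, 0, 1, 15, 45 and 145; at an unadjusted p under 0.05 the 2 core fits with 0 calls (without P60 cortex or P60 white matter) had 264 and 227. Core smooth muscle gave 100 without the filter, 26 with at least 5 cells per library and 11 to 60 without 1 library, against 41. Other mural cells gave 206 without the filter and 35 to 227 without 1 library, against 126. The interaction gave 150 without the filter, 338 against all other kept cells and 21 to 267 without 1 library, against 92; a stage left with 1 library was taken to vary like the other.

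The smooth muscle share difference of -2.61 percentage points turned to 18.4 with a gate of 3 UMIs, 3.29 with thinned cells and 42.5 with all other-class RNA left out, and ran from -9.27 to 8.86 without 1 library (8.86 without P15 cortex). Leaving out all members with other-class RNA reversed Kcnj8 (-2.82) and P2ry14 (-1.22). Cst3, at -0.64 in all members, was 1.31 in core cells with at least 5 per library, 1.93 in other mural cells and 1.43 in core cells without P15, and Apoe, at -2.92 in all members, was 0.0505 in core cells without P7 cortex. The causes were not tested. The mural share difference of 1.19 points shrank to 0.105 with a gate of 3 UMIs (exact permutation p = 0.914), 0.251 with other-class RNA left out and 0.413 without P60 white matter. The difference in the share of members with at least 3 S and G2M UMIs was negative under every alternative run, from -36.4 unthinned to -9.03 without P7 SVZ. No paired analysis was possible because replicate numbers were given in accession order and pair no libraries.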
